A study of Mus musculus with 6 samples.

Results

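The 10 genes described here mark Kupffer cells, the resident macrophages of the liver, in RNA-seq of whole mouse livers. They were chosen by symbol, and all 10 were found among the 22173 gene symbols of the table. Of these, 8 are markers of resident Kupffer cells (Clec4f, Vsig4, Timd4, Marco, Cd5l, C1qa, C1qb and C1qc), and 2 are expressed by macrophages in general (Adgre1 and Csf1r). In the study, 3 wild type mice were given DDK, a compound that the series title calls a limonoid, and 3 wild type mice were given vehicle. All 6 mice were on the HFHC diet, begun at 6 weeks of age and continued for 16 weeks, with DDK or vehicle given during the last 4 weeks. Diet and compound are known only by these abbreviations, and no group without the diet entered the comparison. The labels used here state neither the sex nor the strain of the mice, nor a cage or batch. The question, per the series' design text, concerns how DDK acts on steatohepatitis, a fatty liver disease with inflammation. Whole livers were measured, so fewer Kupffer cells and less RNA of a gene per cell cannot be told apart in any value below.

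Kupffer cells line the liver sinusoids, take up particles and dying cells from blood, and are maintained by signals from neighbouring endothelial cells, stellate cells and hepatocytes. In fatty liver disease, blood monocytes can enter the liver and become macrophages that share general macrophage genes with Kupffer cells, and with time can take on parts of the Kupffer cell programme. Clec4f is, in mice, the marker most restricted to Kupffer cells, and Timd4 marks the long-lived population seeded before birth, whereas Adgre1 and Csf1r are also expressed by recruited macrophages.

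Promoter sequence was matched in RefSeq for 7 of the 10 genes. The sequences of the 3 resident markers that fell in DDK livers and of Clec4f, which did not pass the test, are shown because all 4 are markers of the same cell type and the results below turn on them. Each runs 5′ to 3′ on the gene's own strand, 250 bases before and 50 bases after the annotated start, on GRCm38.p6. Capitals mark GAGGAA or its reverse complement TTCCTC, the core of sites bound by PU.1, the ETS factor encoded by Spi1.
Cd5l promoter, chr3:87357631-87357930, plus strand: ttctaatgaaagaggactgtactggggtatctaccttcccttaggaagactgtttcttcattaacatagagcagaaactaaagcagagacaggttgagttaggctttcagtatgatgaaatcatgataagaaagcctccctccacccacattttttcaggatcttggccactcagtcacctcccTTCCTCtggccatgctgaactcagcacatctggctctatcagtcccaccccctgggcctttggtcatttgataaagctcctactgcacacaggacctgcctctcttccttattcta
C1qb promoter, chr4:136886151-136886450, minus strand: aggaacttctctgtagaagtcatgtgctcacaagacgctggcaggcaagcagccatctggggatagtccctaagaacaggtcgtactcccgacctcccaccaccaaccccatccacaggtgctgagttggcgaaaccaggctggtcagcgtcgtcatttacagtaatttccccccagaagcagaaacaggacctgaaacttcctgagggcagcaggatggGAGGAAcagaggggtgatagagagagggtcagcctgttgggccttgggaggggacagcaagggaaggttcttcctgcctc
C1qc promoter, chr4:136892865-136893164, minus strand: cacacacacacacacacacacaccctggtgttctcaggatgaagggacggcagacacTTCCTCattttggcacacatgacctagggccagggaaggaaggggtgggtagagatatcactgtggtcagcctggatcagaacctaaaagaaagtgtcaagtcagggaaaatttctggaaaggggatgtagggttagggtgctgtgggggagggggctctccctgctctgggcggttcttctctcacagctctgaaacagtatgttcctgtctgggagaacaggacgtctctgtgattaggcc
Clec4f promoter, chr6:83656067-83656366, minus strand: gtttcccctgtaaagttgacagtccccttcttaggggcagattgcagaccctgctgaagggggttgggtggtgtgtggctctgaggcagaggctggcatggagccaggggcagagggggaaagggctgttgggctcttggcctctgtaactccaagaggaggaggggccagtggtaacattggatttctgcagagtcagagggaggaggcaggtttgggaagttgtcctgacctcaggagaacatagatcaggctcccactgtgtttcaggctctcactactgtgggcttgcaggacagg
GAGGAA, on either strand, was present in the promoters of Cd5l, C1qb, C1qc, Marco and Vsig4, and the same letters were found in 28.3% of the 32851 RefSeq promoters of that length. It was not among the letters of the Clec4f and Timd4 windows. TGCTGAC, a MAF half-site searched on both strands, was found in the Timd4 promoter and in 4.67% of all promoters. GTGGGAA, the core of RBPJ sites, also searched on both strands, was found in none of the 7 and in 6.38% of all promoters. No window held matches to more than 1 of the 3 motifs, so no matches overlapped, and a match describes sequence, not binding.

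The authors' deposited values are FPKM, which scale fragments to gene length and to library size. The fragments behind them could be recovered and totalled 26576291 to 30237490 in DDK livers and 33963898 to 36105315 in vehicle livers. Each gene was tested with limma on log2(FPKM + 1), with Benjamini-Hochberg adjustment over the 10681 genes that reached 0.5 FPKM in at least 3 livers. All 10 genes passed that filter. Across those 10681 genes, 1093 were higher and 3234 lower in DDK livers at an adjusted p under 0.05, together 40.5%. After median-ratio scaling the split was 1963 higher and 1650 lower, and the all-gene median of the log2 fold changes was 0.00 in place of -0.23. Fold changes on the log2(FPKM + 1) scale understate the change of genes of low level.

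In DDK livers, 5 of the 10 Kupffer cell identity genes were lower than in vehicle livers, and none was higher. They were both pan-macrophage genes and 3 of the 8 resident markers, Cd5l, C1qb and C1qc. Being lower in DDK livers was common in these libraries, at 30.3% of all genes tested, and 10.2% were higher. The same 5 genes had every DDK liver below every vehicle liver, an arrangement seen in 39.2% of all genes tested. The 5 other resident markers, Clec4f, Vsig4, Timd4, Marco and C1qa, did not pass the test, and their groups overlapped. The median log2 fold change of the 8 resident markers was -0.54. With each gene's own variance in place of limma's moderated one, C1qc alone of the 10 kept an adjusted p under 0.05 (0.0486), and the other 4 lay between 0.0822 and 0.0976.

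**Figure D1:**
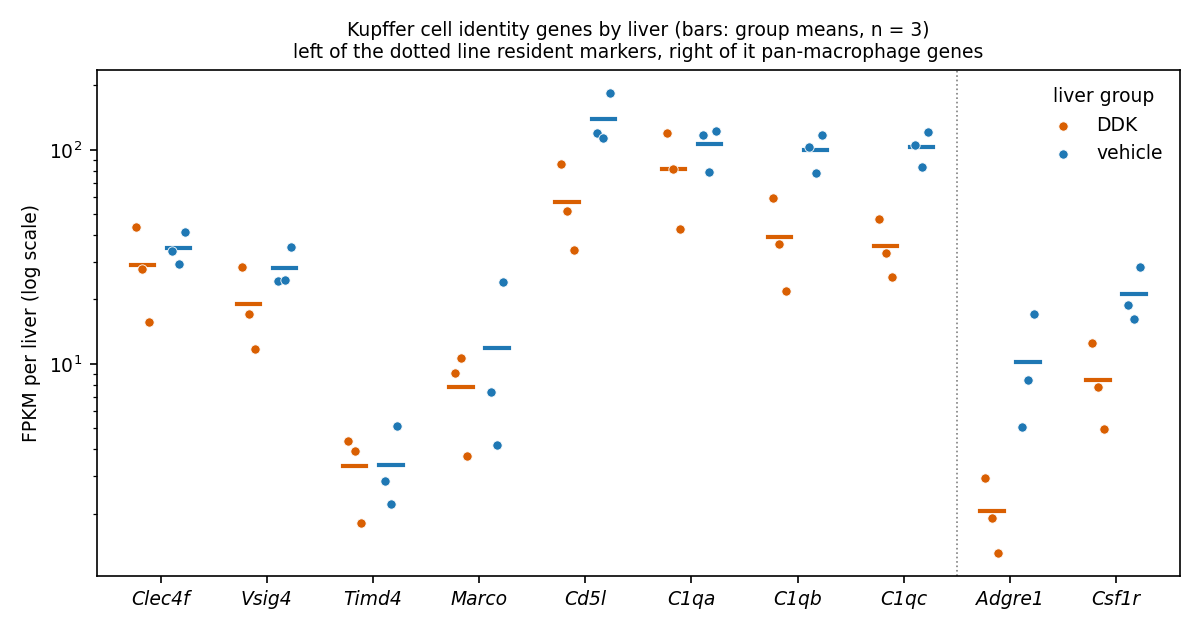
FPKM of each of the 10 genes in each liver on a log axis, DDK in orange and vehicle in blue, with bars at the group means of 3 livers. The points of the groups do not overlap for Cd5l, C1qb, C1qc, Adgre1 and Csf1r, and overlap for the 5 other genes.

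Adgre1, an adhesion G protein-coupled receptor whose protein is the classical surface antigen of mouse macrophages (chr17:57358691-57483527), had the most negative fold change of the 10 genes. Its level was 2.94, 1.91 and 1.31 FPKM in DDK livers, against 5.05, 8.37 and 17.1 FPKM in vehicle livers. The vehicle livers were themselves spread widely, and the lowest of them still exceeded the highest DDK liver. The mean was 2.05 ± 0.822 FPKM in DDK livers and 10.2 ± 6.23 FPKM in vehicle livers (SD, n = 3 each), so that DDK livers stood at 20.2% of the vehicle mean. In limma the log2 fold change was -1.76 ± 0.35 (SE, 95% interval -2.54 to -0.98, adjusted p = 0.00488).

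Csf1r encodes the receptor for CSF1 and IL34, on which Kupffer cells depend. It had 12.6, 7.76 and 4.94 FPKM in DDK livers, against 18.9, 16.3 and 28.2 FPKM in vehicle livers. All 3 DDK livers were below all 3 vehicle livers. The means were 8.43 ± 3.86 FPKM in DDK livers and 21.1 ± 6.27 FPKM in vehicle livers (SD, n = 3 each), and the log2 fold change was -1.28 ± 0.29 (SE, limma adjusted p = 0.00814). Csf1r overlaps Hmgxb3 on the opposite strand in GENCODE M21. The library kit does not mark strand, so reads of the overlapping stretch cannot be assigned to either gene, and the Csf1r values are uncertain to that extent.

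Cd5l encodes a scavenger-receptor-family protein that macrophages secrete into blood (chr3:87357881-87371073), and it had the highest mean of the 10 genes in vehicle livers. It had 85.5, 52.0 and 34.1 FPKM in DDK livers, against 120, 114 and 184 FPKM in vehicle livers. No DDK liver reached the vehicle range. The means of 57.2 ± 26.1 FPKM in DDK livers and 139 ± 38.6 FPKM in vehicle livers (SD, n = 3 each) gave a log2 fold change of -1.33 ± 0.30 (SE, limma adjusted p = 0.00784).

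C1qa, C1qb and C1qc encode the 3 chains of C1q, the protein that recognises immune complexes and opens the classical complement pathway. The genes lie together on chr4:136880129-136898803, in the order C1qb, C1qc, C1qa, all on the minus strand. C1qb had 59.5, 36.3 and 22.0 FPKM in DDK livers, against 103, 78.2 and 117 FPKM in vehicle livers. C1qc had 47.5, 33.0 and 25.6 FPKM in DDK livers, against 106, 83.4 and 121 FPKM in vehicle livers. In both genes every DDK liver was below every vehicle liver. The log2 fold change was -1.41 ± 0.30 for C1qb (SE, limma adjusted p = 0.00646) and -1.55 ± 0.22 for C1qc (SE, limma adjusted p = 0.00140).

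C1qa, the third chain, had 120, 81.1 and 42.7 FPKM in DDK livers, against 118, 79.0 and 123 FPKM in vehicle livers. Only the lowest DDK liver was below the vehicle range. Its mean was 81.4 ± 38.8 FPKM in DDK livers and 107 ± 24.1 FPKM in vehicle livers (SD, n = 3 each), with a log2 fold change of -0.48 ± 0.32 (SE, 95% interval -1.20 to 0.24) and limma adjusted p = 0.251. The interval allows a fall as well as a small rise.

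The ratios of the chains within a liver were compared next. C1qb stood at 0.495, 0.447 and 0.515 times C1qa in DDK livers, against 0.874, 0.991 and 0.951 times in vehicle livers. C1qc stood at 0.395, 0.406 and 0.599 times C1qa in DDK livers, against 0.899, 1.06 and 0.982 times in vehicle livers. In both ratios the groups were apart, whereas the ratio of C1qc to C1qb overlapped, at 0.799, 0.909 and 1.16 in DDK livers and 1.03, 1.07 and 1.03 in vehicle livers. These pairs were chosen after their values were seen and are a description without a test. The share of all genes whose ratio to C1qa separated the groups was not counted, so how common this arrangement is remains unknown. FPKM were made with recovered gene lengths of 1082 bp for C1qa, 1104 bp for C1qb and 1122 bp for C1qc, the same lengths in all 6 libraries.

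**Figure D2:**
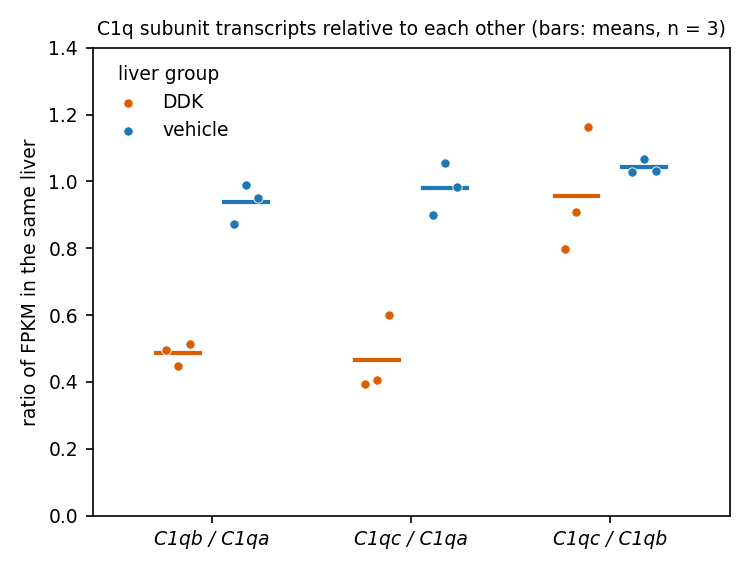
Ratios of the FPKM of C1q chain genes within each liver, DDK in orange and vehicle in blue, with bars at the means of 3 livers. The C1qb to C1qa and C1qc to C1qa ratios are lower in every DDK liver, and the C1qc to C1qb ratios overlap.

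Of the 8 resident markers, the 4 that encode surface receptors did not pass the test. Clec4f, a C-type lectin that binds glycans (chr6:83644542-83656187), had 43.6, 27.7 and 15.7 FPKM in DDK livers, against 33.6, 29.2 and 41.3 FPKM in vehicle livers. The highest and the lowest of the 6 values were both DDK livers. Means of 29.0 ± 14.0 FPKM in DDK livers and 34.7 ± 6.10 FPKM in vehicle livers (SD, n = 3 each) gave a log2 fold change of -0.35 ± 0.30 (SE, 95% interval -1.02 to 0.32, limma adjusted p = 0.363).

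Timd4 encodes a receptor for phosphatidylserine on dying cells (chr11:46810800-46844332). It had 4.34, 3.91 and 1.81 FPKM in DDK livers, against 2.83, 2.20 and 5.13 FPKM in vehicle livers, from 125 to 398 fragments per library. The groups overlapped. The means were 3.35 ± 1.35 FPKM in DDK livers and 3.39 ± 1.54 FPKM in vehicle livers (SD, n = 3 each), with a log2 fold change of -0.01 ± 0.29 (SE, 95% interval -0.65 to 0.63, limma adjusted p = 0.980). The sign of this value turned, to 0.23, under median-ratio scaling.

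Vsig4, the complement receptor with which Kupffer cells take up C3-coated particles from blood (chrX:96247203-96293438), lay closest to the threshold among the genes that missed it. It had 28.3, 17.1 and 11.7 FPKM in DDK livers, against 24.4, 24.7 and 35.2 FPKM in vehicle livers. Of the DDK livers, 1 lay within the vehicle range and the other two below it. Its log2 fold change was -0.61 ± 0.27 (SE, limma adjusted p = 0.0992). Without DDK replicate 1 the adjusted p was 0.0174, and on the TPM scale, where 4929 of the 10681 genes were lower, it was 0.0268. No other alternative called Vsig4, and over all of them its adjusted p ran from 0.0174 to 0.395.

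Marco, a scavenger receptor for bacteria and particles (chr1:120474538-120505024), had 9.07, 10.6 and 3.71 FPKM in DDK livers, against 7.37, 4.18 and 24.0 FPKM in vehicle livers. The vehicle livers alone spanned a wider range than the DDK livers. The log2 fold change was -0.32 ± 0.52 (SE, 95% interval -1.48 to 0.83, limma adjusted p = 0.633), and it turned to 0.32 without vehicle replicate 3.

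**Figure D3:**
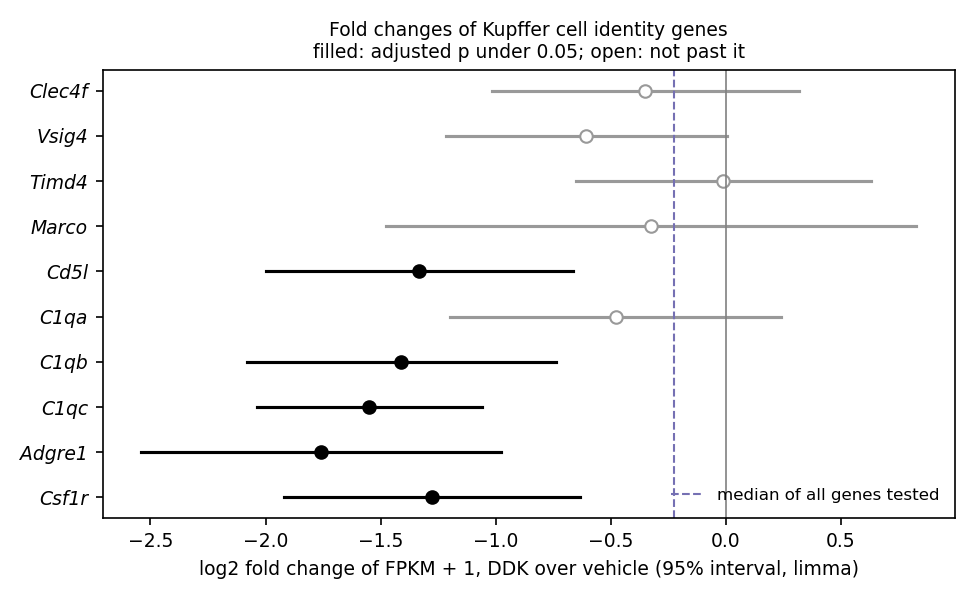
Log2 fold change of FPKM + 1, DDK over vehicle, for the 10 genes with 95% intervals from limma, where filled points passed an adjusted p of 0.05. Cd5l, C1qb, C1qc, Adgre1 and Csf1r lie between -1.76 and -1.28, and the open points lie between -0.61 and -0.01.

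Within each group, most of the 10 genes ordered the livers alike. DDK replicate 3 was the lowest DDK liver for 10 of the 10 genes, as it was for 33.4% of all genes tested. DDK replicate 1 was the highest for 9 of the 10, all but Marco, against 38.0% of all genes tested. Among vehicle livers, replicate 3 was the highest for 10 of the 10 genes, against 42.1% of all genes tested, and replicate 2 was the lowest for 8 of them, all but Vsig4 and Adgre1, against 29.4% of all genes tested. The genes share their libraries, so these counts describe 6 livers and not 10 independent measures.

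On the FPKM scale, which is per length, the levels ran in a similar order in both groups. In DDK livers the order of the means was C1qa, Cd5l, C1qb, C1qc, Clec4f, Vsig4, Csf1r, Marco, Timd4 and Adgre1, and the ranges of each neighbouring pair overlapped. In vehicle livers it was Cd5l, C1qa, C1qc, C1qb, Clec4f, Vsig4, Csf1r, Marco, Adgre1 and Timd4. There the 4 genes of secreted proteins stood apart from the rest, since the lowest of C1qb, 78.2 FPKM, exceeded the highest of Clec4f, 41.3 FPKM. All other neighbours in vehicle livers overlapped. Adgre1 was last in DDK livers and next to last in vehicle livers.

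Because a call in 1 gene and none in another does not show that they differ, each resident marker was also set against a pan-macrophage gene of the same liver. Relative to Csf1r, 4 of the 8 resident markers were higher in every DDK liver than in every vehicle liver: Clec4f, Vsig4, Timd4 and C1qa. Dividing by a gene that fell raises most ratios, and 50.5% of all genes tested showed that arrangement. No resident marker had all DDK ratios below all vehicle ratios, against 0.88% of all genes tested. Cd5l, C1qb and C1qc kept overlapping ratios to Csf1r. Such ratios come from the same livers as the levels above and are not independent of them.

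The ratio of Clec4f to Csf1r was 3.47, 3.57 and 3.18 in DDK livers, against 1.78, 1.80 and 1.46 in vehicle livers. The 6 values formed 2 narrow groups, although the Clec4f levels themselves overlapped. The mean ratio was 3.41 ± 0.203 in DDK livers and 1.68 ± 0.187 in vehicle livers (SD, n = 3 each), 2.03 times higher in DDK livers. A two-sided exact permutation test gave p = 0.1, the smallest that 3 against 3 livers allow. The limma fit of log2(FPKM + 1) relative to Csf1r gave a difference of 0.93 ± 0.50 (SE, 95% interval -0.05 to 1.90, adjusted p = 0.0951). That fit pools the spread of ratios to Csf1r over all genes. With the gene's own spread alone, a calculation added after the data were seen, the SE was 0.12 and the interval 0.60 to 1.25, but the adjusted p was 0.108, so Clec4f did not pass there either.

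Vsig4 kept 2.25, 2.20 and 2.37 times the Csf1r level in DDK livers, against 1.29, 1.52 and 1.25 times in vehicle livers. C1qa stood at 9.56, 10.5 and 8.63 times Csf1r in DDK livers, against 6.24, 4.85 and 4.36 times in vehicle livers. For both, the groups were apart, and limma relative to Csf1r gave 0.67 ± 0.49 for Vsig4 (SE, adjusted p = 0.211) and 0.80 ± 0.50 for C1qa (SE, adjusted p = 0.148). Timd4 had ratios of 0.345, 0.503 and 0.366 in DDK livers, against 0.150, 0.135 and 0.182 in vehicle livers. It was the 1 resident marker past the threshold relative to Csf1r, at 1.27 ± 0.48 (SE, limma adjusted p = 0.0252), where 47.1% of all genes tested were called higher and 0.272% lower. That call was lost without DDK replicate 2 (adjusted p = 0.172), vehicle replicate 1 (0.122), vehicle replicate 2 (0.0639) or vehicle replicate 3 (0.121). It was also lost with voom on the recovered fragments (0.0627) and with the replicate block (0.160), and with voom the 1 resident marker called was Clec4f, at 1.02 (adjusted p = 0.0259).

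Cd5l held to Csf1r closely in both groups. Its ratio was 6.80, 6.71 and 6.91 in DDK livers, against 6.36, 6.99 and 6.51 in vehicle livers. The limma difference was -0.06 ± 0.50 (SE, 95% interval -1.04 to 0.93), and with the gene's own spread the interval was -0.19 to 0.08. C1qb had ratios of 4.73, 4.67 and 4.44 in DDK livers, against 5.45, 4.81 and 4.15 in vehicle livers, and a difference of -0.13 ± 0.50 (SE, limma adjusted p = 0.802). C1qc had ratios of 3.78, 4.25 and 5.17 in DDK livers, against 5.60, 5.12 and 4.28 in vehicle livers, and a difference of -0.27 ± 0.50 (SE, limma adjusted p = 0.606). The groups overlapped for all 3 of these genes. Marco, at 0.721, 1.37 and 0.751 in DDK livers and 0.390, 0.257 and 0.851 in vehicle livers, overlapped as well.

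**Figure D4:**
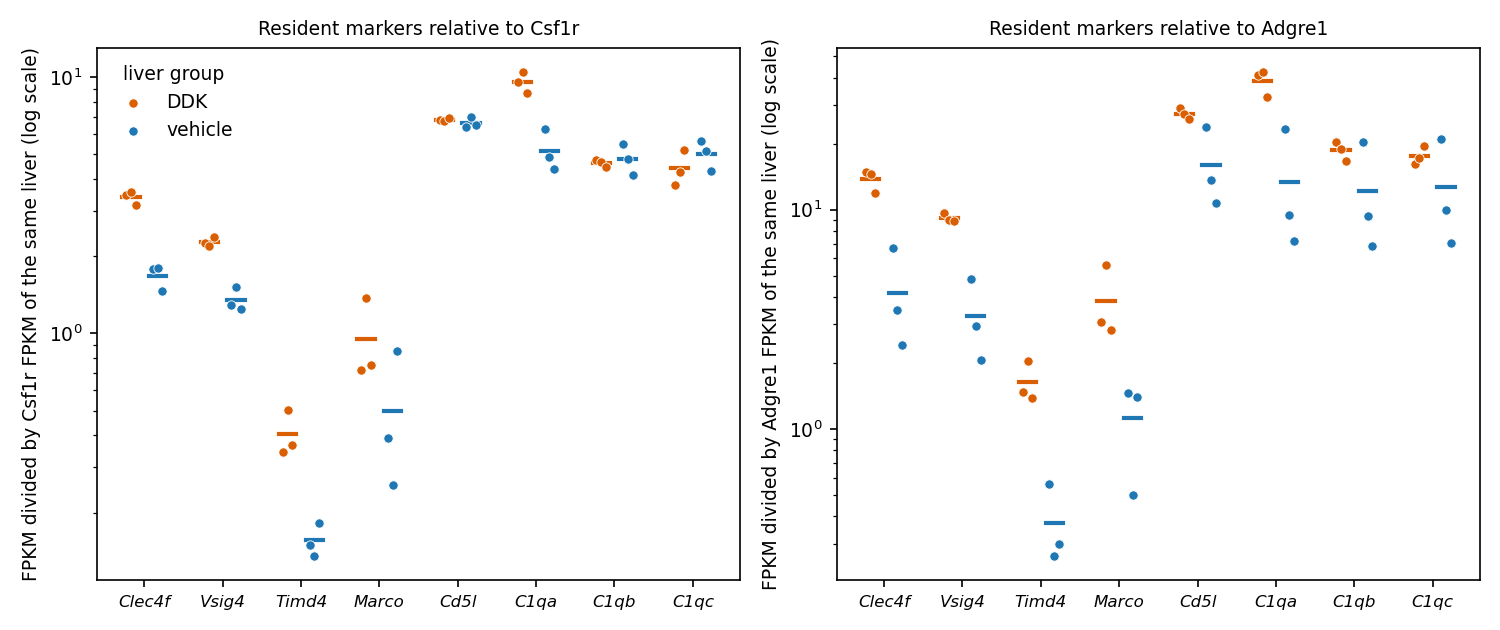
FPKM of each resident marker divided by that of Csf1r (left) or Adgre1 (right) in the same liver, on log axes, DDK in orange and vehicle in blue, with bars at the means of 3 livers. Relative to Csf1r, the groups are apart for Clec4f, Vsig4, Timd4 and C1qa, and the ratios of Cd5l, C1qb and C1qc overlap.

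Relative to Adgre1, 6 of the 8 resident markers were higher in every DDK liver than in every vehicle liver, all but C1qb and C1qc, against 84.0% of all genes tested. None was lower in every DDK liver, against 0.206% of all genes tested. Clec4f stood at 14.8, 14.5 and 12.0 times Adgre1 in DDK livers, against 6.66, 3.49 and 2.41 times in vehicle livers. Here the vehicle ratios were spread more widely than for Csf1r, as the Adgre1 level itself was. Limma called 3 of the 8 higher and none lower, where 81.4% of all genes tested were called higher and 0.0936% lower. The differences relative to Adgre1 were 1.41 ± 0.60 for Clec4f (SE, adjusted p = 0.0270), 1.75 ± 0.54 for Timd4 (SE, adjusted p = 0.00419) and 1.43 ± 0.56 for Marco (SE, adjusted p = 0.0170).

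The median difference of the 8 resident markers was 1.22 relative to Adgre1 and 0.73 relative to Csf1r. Over all genes tested it was 1.53 relative to Adgre1 and 1.05 relative to Csf1r. Their median thus lay above Adgre1 and Csf1r and below the median gene. Relative to Adgre1, C1qc turned to -0.22 under a correction for gene length and to -0.09 without vehicle replicate 3. The 3 calls relative to Adgre1 were lost, to a count of 0, without DDK replicate 2 or without vehicle replicate 2. Clec4f also lost its call without DDK replicate 1 (limma adjusted p = 0.0996) or DDK replicate 3 (0.0798), and Marco without DDK replicate 3 (0.0585). At an unadjusted p under 0.05, limma gave 4 of the 8 relative to Adgre1 and 1 of the 8 relative to Csf1r with all livers in. Csf1r itself stood at 4.28, 4.06 and 3.76 times Adgre1 in DDK livers, against 3.74, 1.95 and 1.65 times in vehicle livers, a difference of 0.48 ± 0.57 (SE, limma adjusted p = 0.408).

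The genes whose profiles over the 6 livers were nearest to Clec4f were Adgre5, Folr2, Cd79b, Gngt2 and C1qa. Their root-mean-square distance from it, in log2 units after each gene's own mean was subtracted, was 0.0882 for Adgre5, 0.120 for Folr2, 0.122 for Cd79b, 0.123 for Gngt2 and 0.132 for C1qa, among 10494 genes. Folr2, a folate receptor of resident macrophages, had 14.0, 9.85 and 4.77 FPKM in DDK livers, against 14.1, 10.3 and 14.6 FPKM in vehicle livers. Its log2 fold change was -0.50 (limma adjusted p = 0.201). By the same measure the other resident markers ranked 9 (Vsig4), 69 (Timd4), 5381 (Cd5l), 6718 (C1qb), 8278 (Marco) and 8951 (C1qc) from Clec4f. Csf1r, at 4174, was nearer to Clec4f than the last 4 of these, and Adgre1 ranked 10177. Nearest to Adgre1 were Arhgdib, Timp1, Lyve1, Ppp1r3b and Col4a1, at distances of 0.277 to 0.316, and Csf1r ranked 48. Among the resident markers Cd5l ranked 29, C1qc 58, C1qb 152 and Vsig4 1090, and the others lay between 3297 and 5780. Distances were larger around Adgre1 than around Clec4f.

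Further genes of Kupffer cells, 13 tested of 15 listed, were divided. Of the 13, 2 were higher and 7 lower in DDK livers, and 4 did not pass, where 10.2% of all genes were higher and 30.3% lower. Their median log2 fold change was -0.52, against -0.23 for all genes. With median-ratio scaling 2 were higher and 4 lower, where 1963 of the 10681 genes tested were higher and 1650 lower. On the TPM scale 0 were higher and 10 lower, where 631 of the 10681 genes tested were higher and 4929 lower. Cd163, the haemoglobin scavenger receptor, had 2.29, 2.05 and 1.14 FPKM in DDK livers, against 0.424, 0.974 and 0.967 FPKM in vehicle livers. Every DDK liver was above every vehicle liver, an arrangement of 14.1% of all genes tested, and the log2 fold change was 0.65 ± 0.20 (SE, limma adjusted p = 0.0251). Fcna, a ficolin made by Kupffer cells, had 61.5, 46.2 and 28.4 FPKM in DDK livers, against 33.1, 16.4 and 24.5 FPKM in vehicle livers, which overlapped, with 0.84 ± 0.29 (SE, limma adjusted p = 0.0444).

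Both of these calls were lost when some single livers were left out. For Cd163 the adjusted p was 0.0853 without DDK replicate 1, 0.0908 without DDK replicate 2 and 0.0581 without vehicle replicate 1. For Fcna it was 0.149 without DDK replicate 1, 0.124 without DDK replicate 2, 0.141 without vehicle replicate 2 and 0.104 without vehicle replicate 3. On the TPM scale the limma adjusted p was 0.0541 for Cd163 and 0.0792 for Fcna. Without the filter on low values it was 0.0803 for Cd163 and 0.135 for Fcna. Fcna also lost its call after length correction (limma adjusted p = 0.0535). Of the 7 genes that were lower, Vcam1, an adhesion molecule, had a log2 fold change of -1.35, and Axl, a receptor for dying cells, -1.18. Siglec1, a sialic acid receptor, had -0.99, with 0.373, 0.161 and 0.182 FPKM in DDK livers, against 0.921, 1.13 and 2.59 FPKM in vehicle livers. Being under 0.5 FPKM in every DDK liver, Siglec1 entered the test only through the vehicle livers, so a call of higher was not open to it. Il18bp, a secreted inhibitor of IL-18, had -0.95. Slc40a1, Msr1 and Mertk were also lower, each with a call that was lost without some single livers, at adjusted p between 0.0520 and 0.115. Under median-ratio scaling the log2 fold change was -0.38 for Slc40a1 (adjusted p = 0.0826), -0.42 for Msr1 (adjusted p = 0.101) and -0.20 for Mertk (adjusted p = 0.202). After length correction it was -0.41 for Slc40a1, -0.32 for Msr1 and -0.11 for Mertk, and none of the 3 calls held.

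Of 11 transcription factors of the Kupffer cell programme that were tested, 7 were lower, 1 was higher and 3 did not pass, with a median log2 fold change of -0.53, where 30.3% of all genes were lower and 10.2% higher. Under median-ratio scaling 3 were lower and 1 higher, where 1650 of the 10681 genes tested were lower and 1963 higher. Zeb2, 1 of the 7 lower, was under 0.5 FPKM in every DDK liver, so it entered the test only through the vehicle livers. Spi1, which encodes PU.1, had 6.99, 5.94 and 3.90 FPKM in DDK livers, against 12.6, 8.48 and 14.2 FPKM in vehicle livers. Every DDK liver was lower, and the log2 fold change was -0.95 ± 0.22 (SE, limma adjusted p = 0.00971). Irf8, a factor of myeloid cells, was lower too, at -0.82. The call of Spi1 was lost under quantile normalization (adjusted p = 0.0553). Nr1h3, the nuclear receptor LXR alpha, which drives Kupffer cell identity and is also made by hepatocytes, had 61.3, 51.7 and 50.5 FPKM in DDK livers, against 64.5, 56.7 and 56.2 FPKM in vehicle livers. Those groups overlapped, at -0.12 ± 0.13 (SE, limma adjusted p = 0.484), and the sign turned, to 0.19, under median-ratio scaling. Id1 was the 1 gene higher, at 0.99 ± 0.22 (SE, limma adjusted p = 0.00784), with 30.7, 21.2 and 24.5 FPKM in DDK livers and 17.3, 8.99 and 11.6 FPKM in vehicle livers.

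Of 11 tested ligands and receptors of the niche that maintains Kupffer cells, 5 were lower, none higher and 6 did not pass, with a median log2 fold change of -0.41, where 30.3% of all genes were lower. Under median-ratio scaling 2 of the 11 were lower, Tgfb1 and Tgfbr2, where 1650 of the 10681 genes tested were lower. Csf1, a ligand of Csf1r, had 1.69, 1.63 and 1.49 FPKM in DDK livers, against 3.05, 2.49 and 2.84 FPKM in vehicle livers. Every DDK liver was lower, at -0.54 ± 0.13 (SE, limma adjusted p = 0.0112), and adjusted p = 0.0749 under median-ratio scaling. Tgfb1 had a log2 fold change of -0.92 and Tgfbr2, a receptor chain for it, of -1.05. The call of Tgfb1 was lost without the filter on low values (adjusted p = 0.0502). Il34, also lower, had 0.405, 0.383 and 0.505 FPKM in DDK livers, and its vehicle livers alone carried it past the filter. Its call was lost with voom (adjusted p = 0.0651) and without some single livers (limma adjusted p between 0.0547 and 0.140). Of 6 tested complement genes other than the C1q chains, C4b alone passed. With median-ratio scaling none of the 6 was lower and 2 were higher, where 1650 of the 10681 genes tested were lower and 1963 higher. C4b had 145, 168 and 137 FPKM in DDK livers and 238, 236 and 262 FPKM in vehicle livers (log2 fold change -0.71, limma adjusted p = 0.00347).

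Of 11 further tested genes of macrophages in general, 9 were lower and none higher, with a median log2 fold change of -1.11, where 30.3% of all genes were lower. Cd14 and Aif1 did not pass. With median-ratio scaling 6 of the 11 were lower, where 1650 of the 10681 genes tested were lower. There the calls of Cd68, Tyrobp and Fcer1g were lost (limma adjusted p = 0.106, 0.159 and 0.0663). Lyz2, the lysozyme of macrophages and neutrophils, had 53.9, 37.4 and 23.2 FPKM in DDK livers, against 193, 168 and 312 FPKM in vehicle livers, a log2 fold change of -2.55 ± 0.30 (SE, limma adjusted p = 0.000703). Ctss, a lysosomal protease, fell by 1.94 on the log2 scale. Of 7 tested genes of monocytes and recruited macrophages, 5 were lower. A filter of 1 FPKM left Ccr2, Cx3cr1 and Itgax untested, and the 2 lower there were Ly6c2 and S100a4. Among the 5 was Ccr2, a chemokine receptor of monocytes, at -0.89, with 0.449, 0.167 and 0.063 FPKM in DDK livers. Ccr2, Cx3cr1 and Itgax were under 0.5 FPKM in every DDK liver. They entered the test only through the vehicle livers, so a call of higher was not open to them. The 1 gene higher in that list was F10, a coagulation factor gene that hepatocytes also express. Of 8 genes of lipid-associated macrophages 5 were lower, with a median of -1.31. Of these 5, Gpnmb and Mmp12 were under 0.5 FPKM in every DDK liver and likewise entered only through the vehicle livers. The count of 5 and the median of -1.31 include them, although a call of higher was not open to them. Trem2, a lipid receptor, had 0.971, 0.394 and 0.404 FPKM in DDK livers, against 5.51, 6.74 and 9.20 FPKM in vehicle livers. Its vehicle livers alone carried it past the filter. The difference between these lists and the resident markers was not tested.

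**Figure D5:**
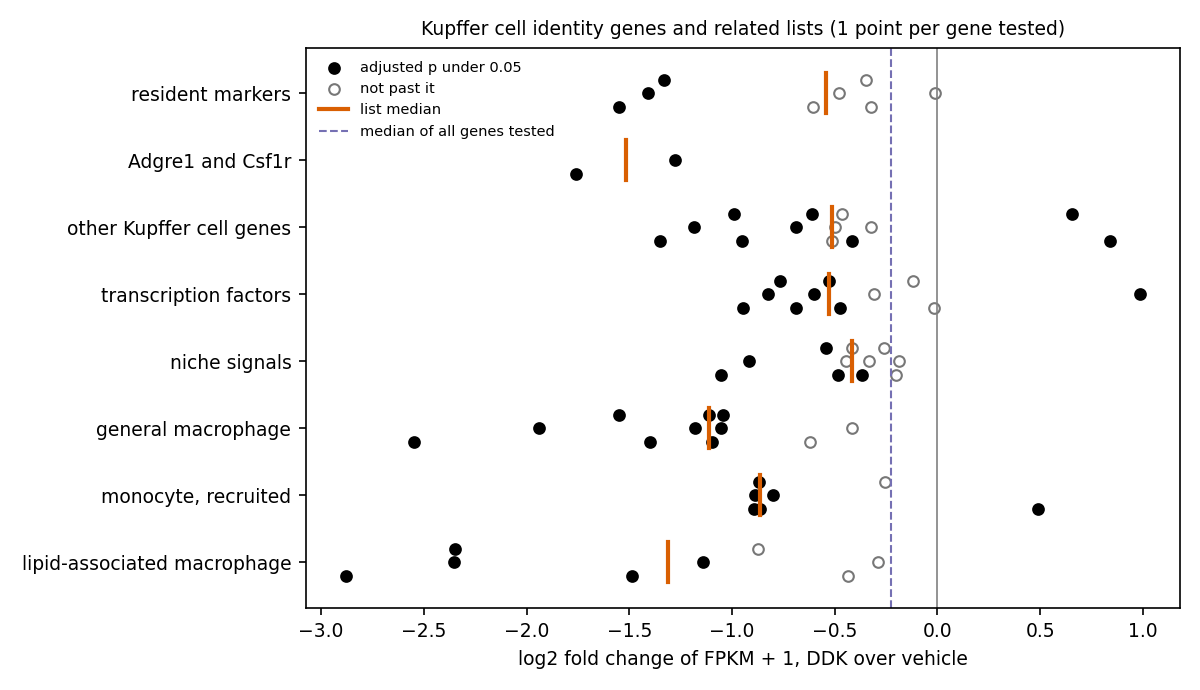
Log2 fold change of FPKM + 1, DDK over vehicle, for each tested gene of 8 lists, with filled points past an adjusted p of 0.05, orange bars at list medians and a dashed line at the median of all genes tested, -0.23. The resident markers spread from -1.55 to -0.01, and the general macrophage genes have a median of -1.11.

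Markers of other cells also moved, and their part in the results above was not tested. The general macrophage genes summed to 84.5 to 218 FPKM in DDK livers and 400.3 to 622 FPKM in vehicle livers, where the 8 resident markers summed to 157 to 398 FPKM in DDK livers and 415 to 650.2 FPKM in vehicle livers. Sums are weighted to abundant genes, and the most abundant were Lyz2 in the general list, Cd5l among resident markers and Alb among hepatocyte genes. Of the 8 resident markers, Clec4f, Vsig4, Timd4, Marco and C1qa overlapped between the groups. Across all genes tested, 10.2% were called higher and 30.3% lower. Of 6 hepatocyte genes 3 were higher (Alb, Ttr and Arg1), and the list summed to 53990.4 to 57991 FPKM in DDK livers and 30393 to 40458 FPKM in vehicle livers. Of 6 endothelial genes 3 were lower, with sums of 26.4 to 41.1 FPKM in DDK livers and 35.8 to 60.8 FPKM in vehicle livers. Of 6 stellate cell genes 4 were lower, with sums of 59.2 to 82.4 FPKM in DDK livers and 124 to 143 FPKM in vehicle livers. Of 3 neutrophil genes tested 1 was lower (S100a9), and of 4 cholangiocyte genes 1 was higher (Krt7). None passed of 2 genes of T and NK cells, 3 of B cells and 1 of dendritic cells. No listed marker was at 0 in all 6 libraries. The resident markers themselves were all present in every liver.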

How the data were processed

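Liver RNA of 6 mice, 3 given DDK and 3 given vehicle, was read from the authors' deposited gene table in FPKM, with samples grouped by the treatment label. The submitters' processing notes name GRCm38 and mm10; aligner, counter and annotation are not given in the sources used here. Library totals and gene lengths were recovered from the FPKM steps. Lengths were set so that fragments come out whole (100% of values within 0.01 fragment), so that share is not an independent check. Each total was known up to a small factor, set so that fragments on listed genes came nearest to it without passing it. Depth limits the low genes most: Adgre1 rested on at least 133 fragments per library and Timd4 on at least 125.

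Genes at 0.5 FPKM or more in at least 3 libraries (10681) were tested with limma 3.58.1 in R 4.3.3 (variance trend) on log2(FPKM + 1), without covariates, with Benjamini-Hochberg adjustment and a threshold of 0.05. The same fit was run after subtracting log2(FPKM + 1) of Adgre1 or Csf1r of the same library from every gene; for low genes this differs from the log2 of the plain ratio. Scripts were tested on simulated data. Limma p-values rest on the spread between these 6 mice within groups, with each gene's variance drawn toward a trend over all genes.

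The 10 genes, the lists and the tests were chosen with earlier results of these data known. Of the other lists, genes past the threshold and up to 2 more with the smallest p could be named, with the 5 profiles nearest to Clec4f and to Adgre1. Predicted genes were left out of the profile search. Alternatives were pseudocounts of 0.1 and 0.5, no filter and a filter of 1 FPKM, median-ratio and quantile scaling, TPM, a correction for gene length, voom on recovered fragments, library weights, a replicate block and leaving out each liver. Unmoderated variances were added after the data were seen. Gene positions are from GENCODE M21 (GRCm38) and promoters from RefSeq (GRCm38.p6).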

Additional observations from a re-analysis of the deposited data

How the results depend on the processing

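Over 63 named genes and both relative measures, 1163 of 1395 values from alternatives kept their direction and side of the threshold, 41 gained a call, 172 lost one and 19 changed sign; where the cause is not given by construction, the cause was not tested. Genes changed numbered 1478 with unmoderated variances, added after the data were seen, and 2345 to 5478 with 1 liver left out. The count among the 10 Kupffer cell genes was 1 with unmoderated variances (5 at an unadjusted p under 0.05) and 5 to 6 with 1 liver left out. Resident markers called relative to Adgre1 numbered 5 under pseudocounts of 0.1 and 0.5, voom or library weights, 0 with unmoderated variances (limma, 3 unadjusted), and 0 to 5 with 1 liver left out. Relative to Csf1r they numbered 0 with unmoderated variances (limma, 4 unadjusted) and 0 to 2 with 1 liver left out.

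Values that changed sign were those of Timd4 (0.23 after median-ratio scaling, 0.28 after quantile normalization, 0.19 after length correction and 0.085 with library weights), Nr1h3 (0.19 after median-ratio scaling and 0.070 after length correction) and Plac8 (0.041 after quantile normalization and 0.023 after length correction). Relative to Adgre1, C1qb turned to -0.10 after length correction, and C1qc to -0.0026 after quantile normalization and -0.22 after length correction. Relative to Csf1r, Cd5l turned to 0.030 with a pseudocount of 0.1 and 0.040 with voom. With 1 liver left out, the log2 fold change ranged over -0.69 (without DDK replicate 1) to 0.016 (without DDK replicate 3) for Clec4f, and over -0.21 (without vehicle replicate 2) to 0.28 (without DDK replicate 3) for Timd4. Under the same omissions Marco ranged over -0.82 (without vehicle replicate 2) to 0.32 (without vehicle replicate 3), and C1qc relative to Adgre1 over -0.094 (without vehicle replicate 3) to 0.60 (without vehicle replicate 1).

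The labels do not tie equal replicate numbers to a shared cage or day. Deviations of same-numbered livers correlated at 0.14, -0.15 and 0.06, and those of differently numbered livers at -0.21 to 0.21. Whether equal numbers mark pairs cannot be told from these values, and the main fit did not pair them. With the replicate block, limma gave 4134 genes changed, 5 of the 10 Kupffer cell genes, and 0 resident markers relative to Adgre1 and 0 relative to Csf1r (1 and 1 unadjusted).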
